A study of Mus musculus with 6 samples.

Results

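Malat1, Neat1, Gas5, Snhg1, Snhg3 and Snhg12 are mouse long noncoding RNAs that stay in the nucleus or carry small nucleolar RNAs in their introns. They were taken by symbol and Ensembl identifier, whatever their values, and 5 of the 6 had a row among the 22246 genes of the deposited expression table. Snhg3 had no row under its own identifier and is not analysed here as a gene. The RNA was from HL-1, a continuous cell line of mouse atrial muscle origin, labelled as heart and strain C57BL/6. The 3 control libraries came from cells that received a control short hairpin RNA (shRNA), and the other 3 are labelled as Smyd4 shRNA. The design text names the comparison as control cells against cells with lowered Smyd4, a gene of the SET and MYND domain lysine methyltransferase family. The sources used here give no dose, time after delivery, vector or number of hairpins. The labels also do not say that libraries of 1 group are separate cultures, and each p-value reflects the spread between these libraries alone, which may be technical.

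Malat1 is an abundant RNA of nuclear speckles, the storage sites of splicing factors, and its 3′ end is cut by the same enzymes that trim transfer RNA precursors. Neat1, transcribed from the neighbouring locus, is the scaffold on which paraspeckle proteins assemble, and its long isoform is needed to build these bodies. The other 4 genes are snoRNA hosts. Their introns are processed into small nucleolar RNAs, which guide chemical modification or cleavage of ribosomal RNA, while many of the spliced exons are short-lived. Gas5 and related hosts begin with a 5′ terminal oligopyrimidine tract (5′TOP), the run of C and T that couples translation to growth signals. Spliced Gas5 is known to be degraded when ribosomes translate it, by nonsense-mediated decay, and was also described as a decoy for the glucocorticoid receptor.

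Levels are given as FPKM (fragments per kilobase of gene, corrected for depth) and differences as log2 changes of FPKM + 0.5, which understate changes of low genes. Smyd4 itself was 12.5, 12.8 and 13.5 FPKM in control replicates 1 to 3, and the libraries labelled Smyd4 shRNA had 12.6, 12.3 and 11.9 FPKM. The groups overlapped and the log2 change was -0.07 (SE 0.04, limma adjusted p = 0.173, exact two-sided permutation p = 0.2). The targeted mRNA was thus not shown to be lower, and the second group is called by its label throughout. Recovered reads lay between 20755849 and 26387605 per library, totals that are lower bounds because the reads of some genes are. Of 11325 tested genes (mean FPKM of 1 or more), 5474 (48.3%) passed an adjusted p of 0.05 in limma, where 25.1% had higher and 23.3% lower labelled values. The median log2 change was 0.02. Of the 15 atrial markers listed, 13 had a row, and Nppa and Sln did not. Gata4, Nkx2-5, Tnnt2 and Gja1 were above 1 FPKM, whereas Myh6, Actc1, Myl7, Tnni3, Tbx5 and Gja5 were at or below 0.0845 FPKM in both group means. Of the atrial list, 3 of 4 tested genes were higher in the labelled libraries. Control and labelled means were 8.09 and 8.88 FPKM for Gata4, 3.57 and 7.68 for Nkx2-5 and 7.11 and 11.7 for Tnnt2. Summed atrial markers were 164 to 167 FPKM in controls and 174 to 175 in the labelled libraries. Most of that sum was Gja1, with means of 146 and 145 FPKM, which did not pass the test. Marker lists of other cell types also moved with the groups. Summed skeletal muscle markers were 43.5 to 44.8 FPKM in controls and 12.4 to 13.1 in the labelled libraries, with all 4 tested members lower and Myog under 1 FPKM. Summed fibroblast markers were 239 to 246 against 270 to 282 FPKM (2 of 5 tested higher, 2 lower), with Lum, Postn and Thy1 near 0. Macrophage markers were 29.2 to 30.6 against 21.4 to 23.2 FPKM (1 of 2 tested lower), most of it Cd14 (27.9 to 18.6 FPKM). Adgre1 and Ptprc were near 0, and the untested Lyz2 (mean 0.228 against 1.69 FPKM) and Csf1r (under 0.1 in both means) were higher in every labelled library than in any control. The part of these shifts in the results that follow was not tested, and in bulk RNA fewer cells of a type and less RNA per cell cannot be told apart.

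The upstream sequences of the 3 measured snoRNA hosts are shown because these genes did not all move in the same direction, although each is transcribed as a host of intronic snoRNAs. Each run covers 250 bases before and 50 bases from the annotated start, 5′ to 3′ on the strand of the gene, from RefSeq on GRCm38.p6. Gas5 is shown at chr1:161034916-161035215 (+), Snhg1 at chr19:8723237-8723536 (+) and Snhg12 at chr4:132308428-132308727 (+). Capitals mark, from left to right, matches to a cAMP response element or a TATA box and then the longest pyrimidine run at the start.
Gas5: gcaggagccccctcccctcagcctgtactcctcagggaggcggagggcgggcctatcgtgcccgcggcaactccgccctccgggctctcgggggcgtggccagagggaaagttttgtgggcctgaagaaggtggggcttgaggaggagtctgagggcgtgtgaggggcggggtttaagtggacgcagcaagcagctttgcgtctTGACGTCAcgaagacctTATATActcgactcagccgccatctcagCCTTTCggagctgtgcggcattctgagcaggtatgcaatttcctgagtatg
Snhg1: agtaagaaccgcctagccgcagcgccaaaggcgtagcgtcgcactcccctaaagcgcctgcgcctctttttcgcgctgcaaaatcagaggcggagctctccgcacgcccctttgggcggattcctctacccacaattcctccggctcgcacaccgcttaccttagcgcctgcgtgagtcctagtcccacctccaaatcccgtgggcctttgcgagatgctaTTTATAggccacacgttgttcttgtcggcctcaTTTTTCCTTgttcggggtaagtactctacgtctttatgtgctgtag
Snhg12: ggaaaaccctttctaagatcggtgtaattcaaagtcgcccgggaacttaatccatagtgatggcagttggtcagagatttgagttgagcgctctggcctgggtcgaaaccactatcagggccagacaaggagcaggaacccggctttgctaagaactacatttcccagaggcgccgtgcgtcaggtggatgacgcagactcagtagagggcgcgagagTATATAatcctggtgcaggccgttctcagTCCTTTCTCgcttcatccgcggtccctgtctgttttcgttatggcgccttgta
RefSeq entries matched 5 of the 6 genes, and Gas5 had a further start upstream. Searched on both strands were the E-box CACGTG, the cAMP response element TGACGTCA and its core TGACG, the TATA box words TATAAA and TATATA and the C/EBP-ATF word TGATGNAA, with TGACG also counted inside TGACGTCA. The Gas5 window held TGACGTCA at 46 bases before the start, a word present in 1.79% of 32851 promoters, and TATATA at 29 bases before it. Snhg12 held TATATA at 32 bases before the start. TATATA occurred in 5.67% of promoters. Snhg1 held TATAAA on the opposite strand at 29 bases before the start, and 13.6% of promoters had that word. A TGACG core, found in 20.8% of promoters, was also present in Snhg12 and Malat1. CACGTG (7.15% of promoters) and TGATGNAA (3.97%) had no match in the windows of Malat1, Gas5, Snhg1, Snhg3 or Snhg12. These matches describe letters, not binding.

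The pyrimidine run at the start is the sequence feature that defines 5′TOP RNAs. From the annotated first base, Gas5 read 5 pyrimidines in a row and Snhg12 read 6. At least 5 occurred in 4.44% of promoters and at least 6 in 2.93%. Around the start, the run was 6 bases long in Gas5 and 9 in Snhg12. Runs of 6 or more that began between 20 bases before and 29 after the start were common, in 45.6% of promoters. Snhg1 had a run of 9 pyrimidines that began 4 bases after the annotated first base, and runs of 9 or more beginning between 20 bases before and 29 after the start occurred in 14.2% of promoters. Malat1 read 1 pyrimidine from its first base and Snhg3 read 0. Among GENCODE M21 transcripts, 6 of 25 for Gas5, 5 of 10 for Snhg12, 1 of 18 for Snhg1 and 1 of 5 for Snhg3 opened with at least 4 pyrimidines, compared with 0 of 4 each for Malat1 and Neat1. Gas5 rose and Snhg12 fell, as described below for each gene. The called direction thus differed between the 2 hosts that read at least 5 pyrimidines from a RefSeq first base. The further Gas5 start, in the window chr1:161034351-161034650, read 0 pyrimidines from its first base and had a longest nearby run of 3.

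Neat1, Gas5 and Snhg1 rose in the libraries labelled Smyd4 shRNA, Snhg12 fell, and Malat1 did not pass the test. Thus 4 of the 5 measured genes were called, against 48.3% of all tested genes. The groups did not overlap for the same 4 genes, against 57.8% of tested genes. With 5 genes these shares show nothing particular to the set. The sizes were modest, since the absolute log2 changes stood between the 53.1 and 76.5 percentiles of all tested genes.

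**Figure D1:**
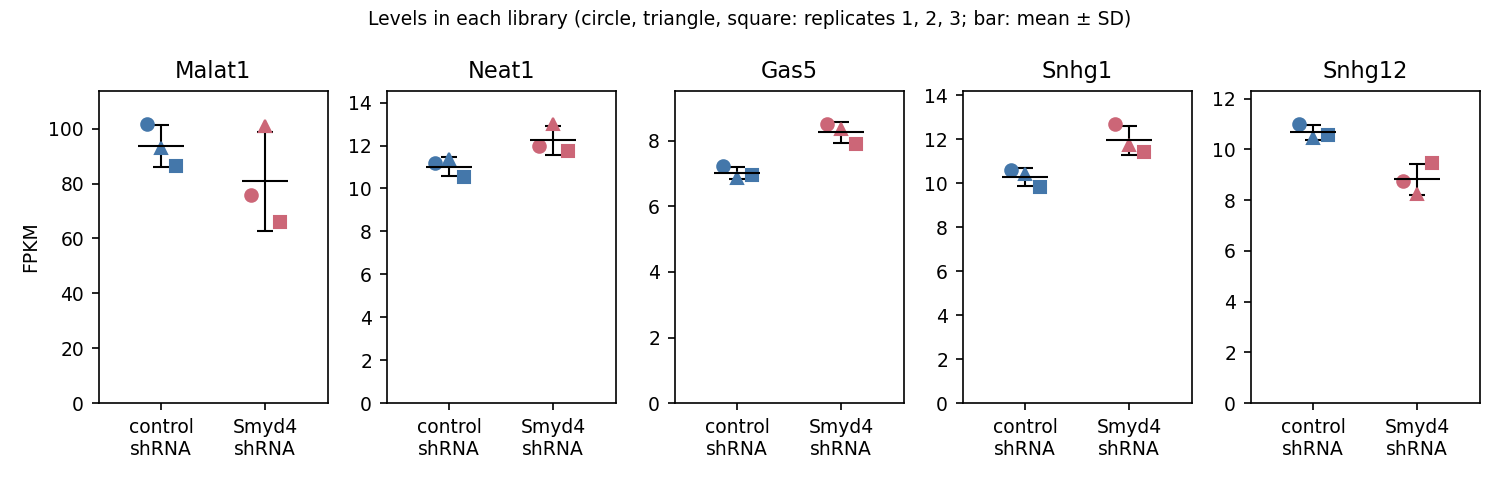
FPKM of each measured gene in the 6 libraries, by group, with circles, triangles and squares for replicates 1, 2 and 3 and bars for the mean ± SD (n = 3 per group); each panel has its own axis from 0. The groups are separate for Neat1, Gas5, Snhg1 and Snhg12, and Malat1 in Smyd4 shRNA replicate 2 lies among the control values.

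Malat1 (ENSMUSG00000092341, GRCm38 chr19:5795690-5802672, minus strand, annotated lincRNA) was counted over 6983 bases, its whole span, and was the most abundant of the set. Its level was 102, 92.8 and 86.4 FPKM in control replicates 1 to 3 and 75.7, 101 and 66.0 FPKM in the libraries labelled Smyd4 shRNA, on 9544 to 17805 reads. Labelled replicates 1 and 3 lay below every control, whereas labelled replicate 2 lay between control replicates 1 and 2. The means were 93.6 ± 7.68 and 80.9 ± 18.0 FPKM (SD, n = 3 each). The log2 change was -0.23 (SE 0.14) with a 95% interval from -0.55 to 0.09, so the data allow a level between 31.7% lower and 6.49% higher. It did not pass the test (limma adjusted p = 0.207, exact permutation p = 0.3, where 0.1 is the smallest p that 3 against 3 libraries can give). Without labelled replicate 2 the log2 change was -0.40 and passed (limma adjusted p = 0.00698). The edgeR quasi-likelihood test on recovered reads called it at -0.22 (adjusted p = 0.0228), whereas DESeq2 on the same reads did not (-0.21, DESeq2 adjusted p = 0.475). The authors' deposited table, which lists called genes, does not include Malat1.

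The spread of Malat1 between replicates exceeded counting error. Its coefficient of variation was 8.20% in controls and 22.3% in the labelled libraries, while the counts behind the values give 0.749% to 1.02%. Its within-group SD of 0.23 on the log2 scale was at the 99.1 percentile of 1127 tested genes within 2-fold of its level. In contrast, Neat1, which is transcribed 22036 bases away on the same strand, had an SD of 0.07 and stood at the 72.0 percentile of genes at its own level.

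**Figure D2:**
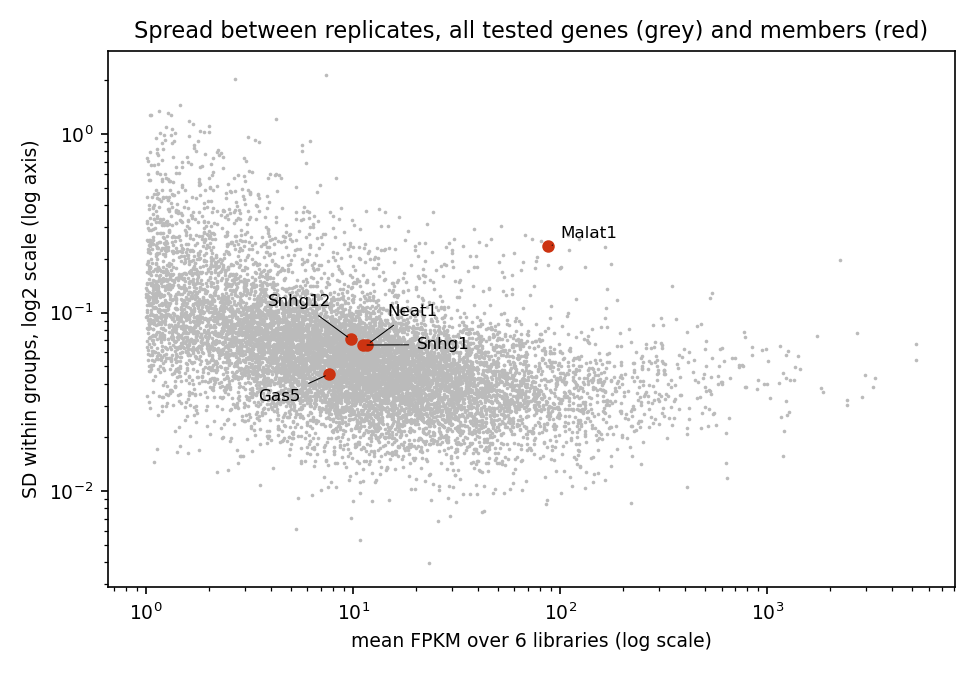
Within-group SD of log2(FPKM + 0.5) (vertical, log axis) against mean FPKM over the 6 libraries (horizontal, log axis) for all tested genes in grey and the 5 measured long noncoding RNAs in red. Malat1, with an SD of 0.23, lies above nearly all genes of its level, and the other 4 lie within the cloud.

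A small set of genes was highest among the labelled libraries in labelled replicate 2, as Malat1 was. Of 7833 tested genes averaging 5 FPKM or more, 16 (0.204%) were at least 1.2-fold above both other labelled libraries there. Malat1 ranked 4 in that order at 1.33-fold. The next was Xist, the nuclear RNA that coats the inactive X chromosome, with 48.0, 63.1 and 49.0 FPKM in labelled replicates 1 to 3 and 52.7, 55.5 and 52.5 in the controls. Long noncoding gene types made up 5 of the 16 genes (31.3%) and 0.792% of the 7833. Neat1 was 1.09-fold above the next labelled library. Mir1898 and Gm27326, which ranked above Malat1, were counted over only 83 and 95 bases. This grouping was made after the values were seen and has no test. It was made for labelled replicate 2 alone, so it does not show that this library differed more than the others.

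Neat1 (ENSMUSG00000092274, chr19:5824708-5845478, minus strand, lincRNA) was counted over 20771 bases, the full span of its long isoform. It was 11.2, 11.3 and 10.5 FPKM in control replicates 1 to 3 and 11.98, 13.0 and 11.7 FPKM in the labelled libraries, on 5048 to 6825 reads. Every labelled library was above every control, the lowest labelled value exceeding the highest control by little. The mean went from 11.0 ± 0.439 to 12.2 ± 0.671 FPKM, 11.1% higher, with a log2 change of 0.15 (SE 0.05, limma adjusted p = 0.0358, exact permutation p = 0.1). In the authors' deposited table the log2 change was also 0.15, with an adjusted p of 0.000767. The call was lost in limma without control replicate 1 (log2 change 0.16, adjusted p = 0.0642), control replicate 3 (0.11, 0.109), labelled replicate 1 (0.16, 0.0571) or labelled replicate 2 (0.10, 0.104). The short and long isoforms share their 5′ part and cannot be separated in a gene-level value.

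The ratio of Neat1 to Malat1, which does not depend on scaling between libraries, was 0.110, 0.122 and 0.122 in controls and 0.158, 0.129 and 0.178 in the labelled libraries. All 3 labelled libraries were above the controls, labelled replicate 2 least so. The mean ratio was 0.118 ± 0.00698 against 0.155 ± 0.0246 (exact two-sided permutation p = 0.1, the smallest possible; 0.1 after adjustment over the 4 ratios computed). Leaving out single libraries moved the difference of the means between 0.0256 and 0.0501, and it was 0.0501 without labelled replicate 2.

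Gas5 (ENSMUSG00000053332, chr1:161034422-161038539, plus strand) lies in a host locus with 10 annotated snoRNA records. Its level was 7.21, 6.87 and 6.96 FPKM in control replicates 1 to 3 and 8.51, 8.37 and 7.89 FPKM in the labelled libraries, on 612 to 836 reads. The lowest labelled library was above the highest control. The mean rose 17.6%, from 7.02 ± 0.178 to 8.25 ± 0.326 FPKM (log2 change 0.22, SE 0.04, limma adjusted p = 0.00302, exact permutation p = 0.1). The authors' deposited table gives 0.23 for this change with an adjusted p of 0.00593. Replicates differed by 2.54% and 3.95% (coefficient of variation), close to the 3.46% to 4.04% that counting alone gives. Gas5 overlaps Zbtb37, a zinc finger gene on the opposite strand at 1.36 to 1.82 FPKM, and reads of these genes cannot be told apart unless counting used strand, which the sources used here do not give. Zbtb37 did not pass the test (log2 change -0.08, limma adjusted p = 0.524).

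Snhg1 (ENSMUSG00000108414, chr19:8723475-8726443, plus strand) holds 8 annotated snoRNA records, Snord22 among them. It was 10.6, 10.4 and 9.83 FPKM in controls and 12.7, 11.7 and 11.4 FPKM in the labelled libraries, on 702 to 984 reads. The labelled libraries were again all above the controls. The mean rose 16.1%, from 10.3 ± 0.405 to 11.9 ± 0.657 FPKM (log2 change 0.21, SE 0.05, limma adjusted p = 0.00839, exact permutation p = 0.1). The authors' deposited table gives 0.21 with an adjusted p of 0.00939.

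The locus neighbours Slc3a2, the heavy chain shared by several amino acid transporters, which begins 106 bases away and is transcribed in the opposite direction. Slc3a2 was 70.5, 69.6 and 73.7 FPKM in controls and 118, 115 and 114 FPKM in the labelled libraries, a separation far wider than the replicate spread. Its log2 change was 0.70, compared with 0.21 for Snhg1. The ratio of Snhg1 to Slc3a2 was accordingly 0.145 ± 0.00963 in controls and 0.103 ± 0.00371 in the labelled libraries, without overlap (exact permutation p = 0.1; adjusted 0.1 over 4 ratios). This ratio was chosen after the values were seen. On the other side Wdr74, a ribosome assembly gene 9384 bases away, did not pass the test (log2 change -0.04, limma adjusted p = 0.46).

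Snhg12 (ENSMUSG00000086290, chr4:132308678-132311024, plus strand, lincRNA) carries box H/ACA records for Snora16a, Snora44 and Snora61 and the box C/D gene Snord99. Its level was 11.0, 10.4 and 10.6 FPKM in controls and 8.75, 8.25 and 9.45 FPKM in the labelled libraries, on 318 to 436 reads. Here every labelled library was below every control, the reverse of Gas5 and Snhg1. The mean went from 10.7 ± 0.296 to 8.82 ± 0.600 FPKM, 17.4% below control (log2 change -0.26, SE 0.05, limma adjusted p = 0.00343, exact permutation p = 0.1). The authors' deposited table gives -0.26 with an adjusted p of 0.0178. With 318 to 436 reads the counting error alone was 4.79% to 5.61%, the widest of the set. Trnau1ap, which ends 739 bases away on the opposite strand, was 11.1, 10.4 and 12.3 FPKM in controls and 11.3, 11.7 and 11.7 in the labelled libraries, and did not pass the test (log2 change 0.03, limma adjusted p = 0.649).

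Snhg1 and Snhg12 exchanged their order in FPKM, which depends on the counted lengths of 2969 and 1626 bases. In reads there was no exchange, with 702 to 984 for Snhg1 and 318 to 436 for Snhg12. By FPKM, Snhg1 was below Snhg12 in all 3 controls, with ratios of 0.964, 0.99995 and 0.930, control replicate 2 being nearly equal. It was above in all 3 labelled libraries, with ratios of 1.45, 1.42 and 1.21. The mean ratio was 0.964 ± 0.0352 against 1.36 ± 0.132, and that of Gas5 to Snhg12 was 0.658 ± 0.00158 against 0.940 ± 0.0937 (exact permutation p = 0.1 for each; adjusted 0.1 over 4 ratios). Both ratios were chosen after the values were seen. Snhg1 and Gas5 were above every control in each labelled library, and Snhg12 was below. Their ratios to Snhg12 therefore could not overlap between the groups, and these p-values add nothing to the results for each gene. Over all libraries the order of mean FPKM, a level per length, was Malat1 at 87.3, Neat1 at 11.6, Snhg1 at 11.1, Snhg12 at 9.74 and Gas5 at 7.63. Malat1 exceeded Neat1 in 6 of 6 libraries. Neat1 exceeded Snhg1 in 5 of 6 and Snhg12 exceeded Gas5 in 5 of 6, so neither pair was ordered alike in every library. Malat1 ranked 4 among 313 tested genes of long noncoding types. It took 0.0460% to 0.0717% of the recovered reads, whose totals are lower bounds.

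Snhg3 is annotated at chr4:132348014-132353686 on the minus strand and encodes Snora73a and Snora73b, box H/ACA RNAs needed for cleavage of the ribosomal RNA precursor. Its locus overlaps Rcc1 (chr4:132331919-132353605), which encodes the chromatin-bound exchange factor of the Ran GTPase, on the same strand. Rcc1 was 30.1, 29.7 and 30.7 FPKM in controls and 26.3, 26.8 and 26.1 FPKM in the labelled libraries. All labelled libraries were below the controls (log2 change -0.19, limma adjusted p = 0.000687). Whether the Rcc1 value holds reads of Snhg3 was not tested. Phactr4, 2237 bases beyond Snhg3 on the same strand, also fell (log2 change -0.13, limma adjusted p = 0.0201).

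The snoRNAs processed from these hosts were not measured. GENCODE M21 places 25 snoRNA records inside the hosts, 10 in Gas5, 8 in Snhg1, 5 in Snhg12 and 2 in Snhg3, 4 of which overlap another record, and none has a row in the expression table. The 3 below are printed to show what the introns of hosts that moved in opposite directions encode: Snord80 at chr1:161037601-161037681 (+) and Snord47 at chr1:161038082-161038158 (+) from Gas5, and Snord99 at chr4:132310691-132310764 (+) from Snhg12, on GRCm38. They are DNA-strand sequences, and capitals mark the C box near the 5′ end and the D box near the 3′ end, where the box C/D proteins including fibrillarin bind.
Snord80: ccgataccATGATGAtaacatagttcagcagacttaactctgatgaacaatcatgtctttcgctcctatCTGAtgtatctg
Snord47: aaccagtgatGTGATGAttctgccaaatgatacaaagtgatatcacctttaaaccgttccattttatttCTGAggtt
Snord99: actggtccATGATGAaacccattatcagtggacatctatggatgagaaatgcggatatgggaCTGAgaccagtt
Elsewhere in the data, 237 snoRNA and scaRNA genes had rows and together held 1392 to 1534 reads in a control library and 1186 to 1658 in a labelled library. Of the 84 that were tested, 9 rose, 5 fell and 70 did not pass, while 48.3% of all tested genes were called. With so few reads, not passing does not show that levels were unchanged. The host values refer mainly to spliced or unspliced host RNA of the counted models. Snhg1 was counted over 2969 bases, 100% of its span, so its model includes the introns and the snoRNA records. The counted length was 91.3% of the span for Gas5 and 69.3% for Snhg12.

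Other noncoding snoRNA hosts also moved in both directions. Of 20 listed, 14 were in the table and 10 were tested, of which 1 rose, 2 fell and 7 were not called. Their median log2 change was 0.00. Without labelled replicate 2, 2 rose. Snhg5 rose from 19.9 to 22.5 FPKM (limma adjusted p = 0.00448). Zfas1, a host of box C/D snoRNAs antisense to Znfx1, fell from 24.8 to 22.1 FPKM (0.00144). The gene 2410006H16Rik, listed as the mouse counterpart of SNHG29, fell from 182 to 156 FPKM (0.00265) and was the most abundant tested gene of long noncoding type. Those that did not pass had control and labelled means of 19.3 and 20.9 FPKM for Snhg6, 32.1 and 33.7 for Snhg8, 10.7 and 9.35 for Snhg15, and 4.04 and 4.21 for Snhg17. The remaining means were 4.56 and 4.36 FPKM for Snhg18, 6.61 and 7.08 for Snhg20 and 9.94 and 9.25 for Epb41l4aos. Snhg11, Snhg14, Dancr and Rian were too low to test. With Gas5, Snhg1 and Snhg12 included, 3 of 13 tested hosts rose, 3 fell and 7 did not pass, and the median was 0.05. Among the 313 tested genes of long noncoding types, 27.2% were called (48 higher, 37 lower), compared with 50.7% of 10329 protein-coding genes. Within them the share was 39.5% for lincRNA, 27.7% for processed transcripts and 16.4% for antisense genes. Levels were not matched, and long noncoding types made up 0.792% of the 7833 tested genes averaging 5 FPKM or more. The shares therefore do not compare these types at a like level.

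**Figure D3:**
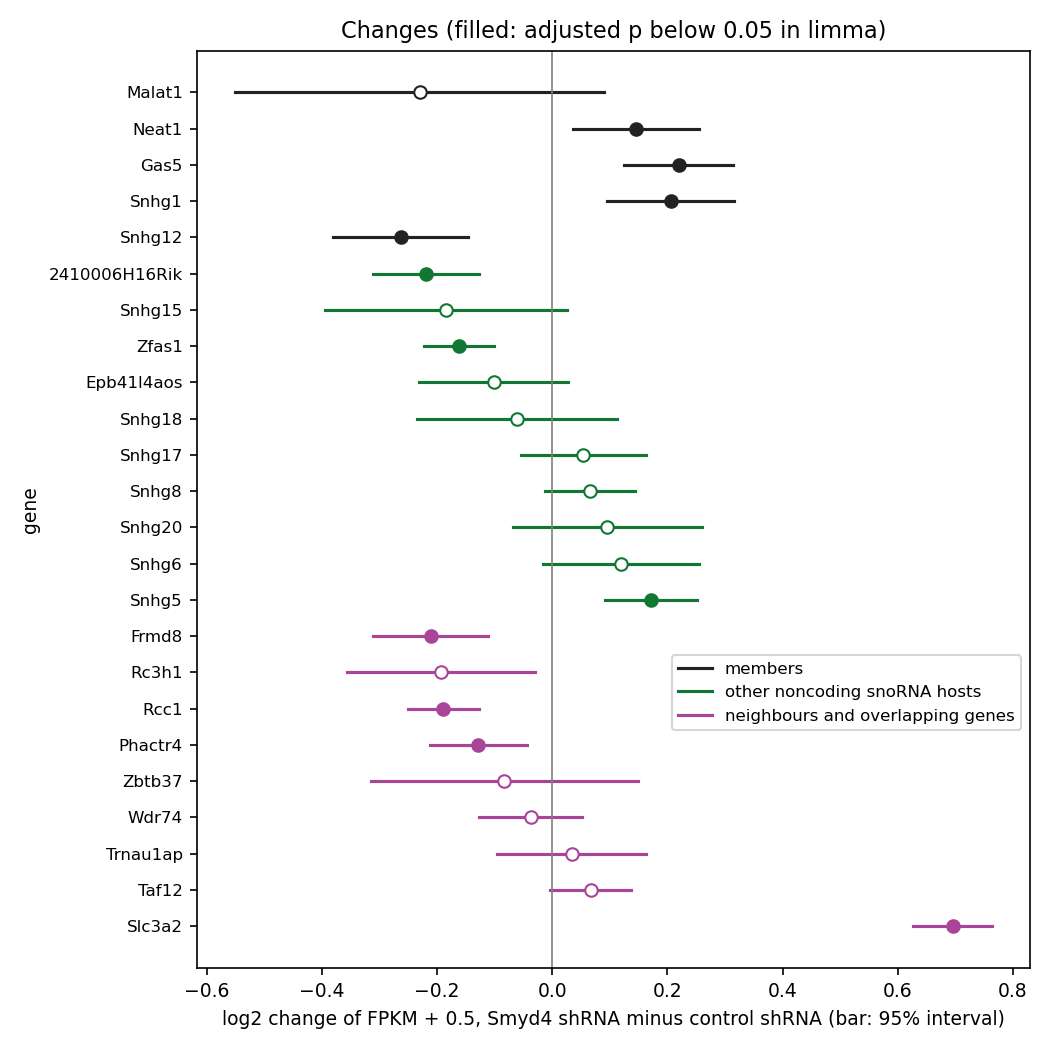
Log2 change of FPKM + 0.5, labelled Smyd4 shRNA minus control shRNA (horizontal), with 95% intervals as bars, for the 5 measured genes, the other noncoding snoRNA hosts and the flanking or overlapping genes described in the text; filled points passed an adjusted p of 0.05 in limma. Hosts lie on both sides of 0, and Slc3a2 at 0.70 lies far to the right of its neighbour Snhg1 at 0.21.

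Protein-coding snoRNA hosts, many of them ribosomal protein and translation factor genes, included more genes that rose than fell. Of 40 tested, 25 rose, 2 fell and 13 were not called. Their median log2 change was 0.12 against 0.02 for all tested genes. The number that rose depended on the fit: it was 19 under quantile normalization, 17 without control replicate 1, 17 without control replicate 2 and 18 without labelled replicate 1, and 2 or 3 fell in each of these fits. Dkc1, the pseudouridine synthase of box H/ACA particles, rose from 22.3 to 26.6 FPKM. The chaperone gene Hspa8 rose from 419 to 491 FPKM. Rcc1, described above, fell from 30.2 to 26.4 and Cnot1, the scaffold of the deadenylase complex, from 29.6 to 25.7 FPKM. The proteins that bind snoRNAs were also higher in part: of 18 genes for core snoRNP proteins and assembly factors, 11 rose, none fell and 7 did not pass (median 0.11). Besides Dkc1, these included the assembly factor Znhit6 (22.6 to 26.6 FPKM), the methyltransferase fibrillarin, Fbl (36.7 to 41.9), and the ATPase Ruvbl1 (46.5 to 52.5). Dkc1, Nop56 and Nop58 stand in both lists. The number of snoRNP genes that rose also depended on the fit. It lay between 8 and 11 over the 16 alternatives, and was 8 with DESeq2.

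Among the partners of Neat1, 8 of 19 paraspeckle protein genes rose, 1 fell and 10 did not pass (median log2 change 0.10). The RNA-binding protein genes Taf15 (85.7 to 101 FPKM), Tardbp (41.8 to 48.3) and Sfpq (78.1 to 87.8), the last a core paraspeckle protein, rose. Nudt21, a subunit of the cleavage factor that chooses polyadenylation sites, fell from 27.7 to 24.9 FPKM. Among nuclear speckle and splicing factors, the protein partners of Malat1, 9 of 23 rose, none fell and 14 did not pass (median 0.06). They included U2af2 (70.5 to 79.6 FPKM), which recognises the polypyrimidine tract of introns, and the serine and arginine rich factors Srsf1 (56.5 to 63.5), Srsf3 (64.5 to 71.0) and Srsf7 (76.5 to 84.6). Of all tested genes 25.1% rose. In the fit restricted to the 7833 genes averaging 5 FPKM or more, 2404 rose. The list counts here and below are not matched for level.

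For the enzymes that form the Malat1 3′ end, 5 of 10 tested RNase P subunit and RNase Z genes rose, 1 fell and 4 did not pass (median 0.14). Without control replicate 2, 3 rose and 1 fell. Rpp30 went from 34.3 to 42.6 FPKM, Pop5 from 14.4 to 18.5 and Rpp14 from 16.5 to 19.7, while Pop4 fell from 5.52 to 4.65. Nonsense-mediated decay factors, which act on spliced host RNAs, had 6 of 16 higher and 10 that did not pass (median 0.06). The RNA helicase gene Dhx34 rose from 5.51 to 9.07 FPKM, and Nbas (6.60 to 7.58) and the exon junction genes Rbm8a (42.8 to 46.8) and Eif4a3 (80.02 to 89.3) also rose. This count was 3 without labelled replicate 1 and 3 without labelled replicate 2. In the snoRNP, speckle and decay lists the number of lower genes was 0 by limma, edgeR and DESeq2 with all libraries, and also 0 at an unadjusted limma p of 0.05. Without labelled replicate 3, limma called 1 decay factor lower and 6 higher.

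Of 20 other 5′TOP messenger RNAs, the class whose start resembles that of Gas5 and Snhg12, 9 rose, 1 fell and 10 did not pass (median 0.09). Under quantile normalization the split was 6 higher and 4 lower. Nap1l1 (161 to 187 FPKM), Npm1 (315 to 355) and Hnrnpa1 (598 to 658) rose, and the initiation factor gene Eif3h fell from 330.3 to 304 FPKM. Of 9 tested glucocorticoid receptor and response genes, 4 rose, 3 fell and 2 did not pass (median 0.04). Pdk4 (8.38 to 13.6 FPKM) and Fkbp5 (8.82 to 11.9) rose, whereas Cebpd (30.4 to 3.48) and Dusp1 (16.9 to 9.29) fell. Of 10 tested other nuclear or regulatory long noncoding RNAs, 2 rose, 2 fell and 6 did not pass (median 0.00), while quantile normalization gave 3 and 2. Leaving out any of the 6 libraries left 1 higher, with 2 lower except without labelled replicate 2, which gave 3 lower. The gene 2900097C17Rik, known as Norad, rose from 35.6 to 42.2 FPKM and Dleu2 from 0.882 to 1.14, while H19 fell from 18.7 to 9.85 and Pvt1 from 1.91 to 1.40. Norad and H19 are known mainly as cytoplasmic RNAs.

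**Figure D4:**
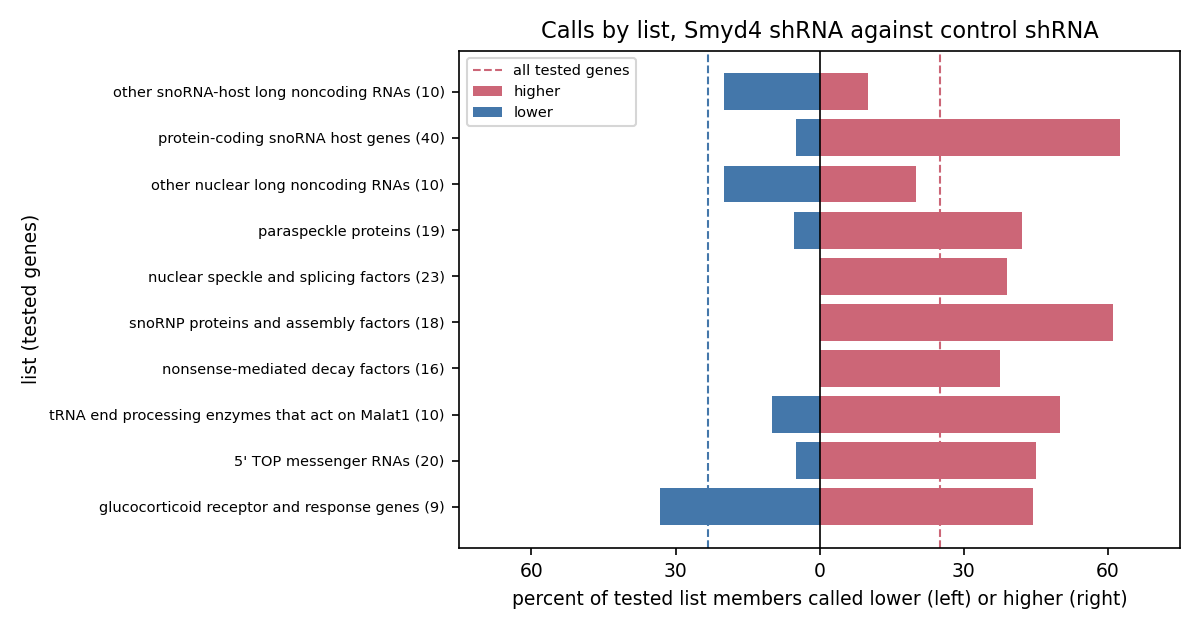
Percent of the tested genes of each list, marker lists aside, that were called higher (right, red) or lower (left, blue) in the libraries labelled Smyd4 shRNA, with the number tested in brackets and dashed lines for all tested genes (25.1% and 23.3%). The snoRNP (11 of 18) and protein-coding host (25 of 40) bars reach furthest to the right of those drawn, and the bars of the other noncoding hosts (1 of 10 higher, 2 of 10 lower) stop short of the lines.

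Among other flanking genes, Frmd8, 4224 bases from Neat1, fell (log2 change -0.21, limma adjusted p = 0.00473). Rc3h1, 59444 bases from Gas5, had a change of -0.19 that did not pass (0.0533), and Taf12, 12857 bases from Snhg12, had one of 0.07 that did not pass (0.109).

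Genes whose values over the 6 libraries lay closest to each long noncoding RNA were found by the distance between log2 values centred on each gene's mean, among 7435 named genes. For Malat1 these were Tnrc6b and Bmpr2, at distances of 0.272 and 0.296, where Malat1's own distance from a flat profile was 0.547. Tnrc6b was 9.57, 9.53 and 8.93 FPKM in controls and 7.498, 8.91 and 7.38 in the labelled libraries. Its labelled replicate 2 was the highest of its group, which the choice by likeness to Malat1 favours. For Neat1 they were Ngdn (0.038) and Ncam1 (0.046), for Gas5 Lamtor1 (0.039), for Snhg1 Gmpr2 (0.054) and Chst14 (0.058), and for Snhg12 Ino80c (0.044) and Tgoln1 (0.056). The profiles share their 6 libraries, and the distances have no test.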

How the data were processed

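RNA of 6 HL-1 libraries was extracted with Trizol and libraries were made with Illumina protocols, per the labels' protocols. Per the submitters' processing notes, tools included TopHat2 2.0.9 and Bowtie2 2.0.6 on GRCm38; no source used here names the counter or its strand setting. The authors deposited FPKM for 22246 genes and a table of 5616 called genes (largest adjusted p 0.0499). That deposited table also has a signal for each library, namely reads over a size factor. The log2 fold changes and p-values in it are the authors' own. FPKM times length over signal was 1 constant (41.6), so FPKM carry the size factors, and whole reads could be recovered (100% of values whole within 1e-04). The authors' lengths served for 5616 genes and GENCODE M21 lengths for 13288, and 3342 genes took the smallest length their values allow, so their reads are lower bounds. Symbols matched 22134 genes by Ensembl identifier.

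Genes averaging 1 FPKM or more were compared as log2(FPKM + 0.5) with limma 3.58.1 (empirical Bayes with trend, R 4.3.3), with Benjamini-Hochberg adjustment over the 11325 tested genes and a threshold of 0.05. The fit was tested on simulated data. Exact two-sided permutation tests were run on single values. Alternatives were other pseudocounts (0.1, 1), no filter or 5 FPKM, median-of-ratios and quantile scaling, no trend, a replicate block, each library left out, and edgeR 4.0.16 and DESeq2 1.42.0 on recovered reads. Named genes were the members, Smyd4, the called genes of lowest adjusted p in each list (at most 4, with 2 of each direction taken first), every other noncoding host, neighbours, and the 2 closest genes per member, some of which are not reported here. Xist and 3 of the ratios were chosen after their values were seen. The members and lists were chosen with earlier results of these data known, so list counts are descriptions without a test of the list. Lists share genes. Promoters came from RefSeq, and snoRNA sequences and positions outside the authors' table from GENCODE M21 on GRCm38.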

Additional observations from a re-analysis of the deposited data

How the results depend on the processing

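Gas5, Snhg1 and Snhg12 kept their direction and stayed past the threshold in all 16 alternatives, and Smyd4 stayed on the other side of it in all 16. The number of called genes lay between 4337 (filter at 5 FPKM) and 6824 (edgeR), and between 4536 and 4993 with a library left out. Malat1 kept its direction but passed with edgeR (log2 change -0.22, adjusted p = 0.0228) and without Smyd4 shRNA replicate 2; with a library left out it lay between -0.40 and -0.10 (limma adjusted p between 0.00698 and 0.543). Neat1 lost its call without a filter (0.15, limma adjusted p = 0.0771), without the trend (0.15, 0.0538) and in 4 of 6 leave-one-out fits, which gave 0.10 to 0.17. The causes were not tested. With a library left out, Gas5 lay between 0.20 and 0.25, Snhg1 between 0.16 and 0.24 and Snhg12 between -0.31 and -0.22. Replicate numbers did not pair the libraries, since deviations of same-numbered libraries correlated at -0.03, 0.02 and 0.01. With the replicate number as a block 5141 genes were called and the log2 changes were unchanged by construction, with limma adjusted p-values of 0.118 for Malat1, 0.0206 for Neat1, 0.0069 for Gas5, 0.0055 for Snhg1 and 0.0055 for Snhg12; 1 of 3 controls correlated best with its own number. The count of decay factors was 3 under the block, that of 5′TOP messenger RNAs 6 without a filter, and that of other nuclear long noncoding RNAs 2 with the filter at 5 FPKM. Protein-coding hosts that rose numbered 19 without a filter. Depth limits Snhg12 most, at 318 to 436 reads per library.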
